A study of Mus musculus with 17 samples.

Results

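Glucocorticoids act through the glucocorticoid receptor, a ligand-activated transcription factor that chaperones and immunophilins hold ready in the cytoplasm. The bound receptor enters the nucleus, raises the transcription of one set of genes and lowers that of many inflammatory genes. The amount of active steroid in a tissue also depends on enzymes that make, activate or inactivate it, and the colon is a mineralocorticoid target in which cortisol or corticosterone is inactivated locally. Pregnenolone 16α-carbonitrile (PCN) is a synthetic steroid that activates the pregnane X receptor (PXR) of rodents and is also known as an antiglucocorticoid. The 10 genes described here were the receptor gene Nr3c1, its targets Fkbp5, Tsc22d3, Sgk1, Zbtb16, Klf9 and Ddit4, and the steroid enzyme genes Hsd11b1, Hsd11b2 and Cyp11a1. They were taken by name, as 10 of the 37324 gene or transcript names on a mouse expression array. The array carries 19 probes for them, and for each gene the probe with the highest mean log2 value in the authors' table was used.

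The arrays measured RNA of colon from male mice on the C57BL/6J background. Wild-type (WT) mice were bought at 6 weeks of age, whereas Pxr-/- mice, in which the PXR gene Nr1i2 is disrupted, came from a line bred in house for 10 years, so that genotype and colony of origin cannot be told apart. After 2 weeks of acclimatization, PCN mice received 100 mg/kg PCN in corn oil by intraperitoneal injection each day for 4 days, and control (CONT) mice received corn oil alone, so that all mice were injected with oil. The mice were killed at zeitgeber time 6, which was 6 h after the last injection. The labels give them as fed, whereas the article calls their state at that hour semi-fasted. The colon arrays number 4 for WT CONT, 4 for WT PCN, 5 for Pxr-/- CONT and 4 for Pxr-/- PCN, out of 6 mice per group in the design.

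Between 61.0% and 69.7% of probes were well above background on each array, no spot was saturated, and the number of arrays limits the precision. Colonocyte genes (8 genes including Car1 and Slc26a3) had a mean log2 signal of 14.88 to 15.42 on all 17 arrays, and goblet cell genes one of 17.26 to 17.86. Signal of the targeted gene, Nr1i2, lay between 11.97 and 12.31 in WT CONT and between 10.39 and 11.61 in Pxr-/- CONT, and the fitted difference of -1.06 ± 0.25 (SE) log2 units did not pass the threshold (limma, adjusted p = 0.201). Under PCN the genotypes overlapped, with 11.10 to 12.44 in WT and 10.95 to 11.93 in Pxr-/-. The fitted difference there was -0.26 ± 0.27, and -0.53 without the near-identical arrays described below, and neither passed the threshold. Whether the Nr1i2 probe lies in the deleted part of the gene was not tested. Pancreatic genes had a mean log2 signal of 17.68 on WT CONT replicate 4, 15.38 on WT PCN replicate 3 and 15.31 on Pxr-/- CONT replicate 2. On the other 14 arrays it was 10.70 or less. Liver genes had a mean of 6.72 to 11.58 in WT CONT, 6.65 to 9.05 in WT PCN and at most 7.13 in the Pxr-/- groups.

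In 2 cases, arrays labelled as different groups carried almost the same profile. Across 38646 probes, the log2 values of WT PCN replicate 4 and Pxr-/- PCN replicate 2 differed with a standard deviation of 0.172, and those of WT PCN replicate 3 and Pxr-/- CONT replicate 2 with one of 0.198. The other 134 pairs of arrays gave 0.297 to 0.616. The 10 genes followed this closeness, with a median difference of 0.0270 in the first pair and 0.0447 in the second, against at least 0.125 in every other pair. WT PCN and Pxr-/- CONT therefore share 1 profile, and WT PCN and Pxr-/- PCN share another. Calls are given with all 17 arrays and with the 13 arrays that remain without these 4, where WT PCN rests on replicates 1 and 2. Fitted values of single genes are from all 17 arrays unless stated otherwise, and for several genes only these are given.

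Some probes pair with a transcript across a splice junction, so that their genomic span is longer than their 60 bases. Among the 19 probes these were the Hsd11b2 probe and the second probes of Zbtb16 and Cyp11a1, which are shown, as is the second probe of Fkbp5, because results below rest on what they read. The sequences of the array design are given 5′ to 3′ as the scanner files hold them, in lower case throughout because no base within them is singled out.
Hsd11b2: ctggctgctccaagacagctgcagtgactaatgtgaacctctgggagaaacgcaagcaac
Fkbp5, second probe: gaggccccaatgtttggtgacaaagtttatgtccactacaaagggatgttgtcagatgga
Zbtb16, second probe: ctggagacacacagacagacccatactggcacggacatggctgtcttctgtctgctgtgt
Cyp11a1, second probe: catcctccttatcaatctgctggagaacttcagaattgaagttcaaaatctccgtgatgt
In build mm9, as the files give it, the Hsd11b2 probe spans 218 bases on the plus strand of chromosome 8 (108046785 to 108047002). That of Fkbp5 covers 28574995 to 28575054 on the minus strand of chromosome 17. The Zbtb16 probe spans 52017 bases of the minus strand of chromosome 9 (48473399 to 48525415) and the Cyp11a1 probe 471 bases of the plus strand of that chromosome (57874074 to 57874544).

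A glucocorticoid response element is read by a receptor dimer as 2 half-sites. RefSeq promoter windows (build GRCm38.p6, 250 bases before to 50 after a start site) were present for 7 of the 10 genes, in 15 windows, while Nr3c1, Zbtb16 and Hsd11b2 had none in the table used. The half-site AGAACA, searched on both strands, was found in 4 of these windows, which belong to Sgk1 and Tsc22d3, and in 19.0% of all 32851 windows. The full 15-base palindrome, with AGAACA and its complement TGTTCT separated by 3 bases, was found in 3 of all windows, or 0.00913%, and 1 of these is a window of Sgk1. It overlaps half-sites counted above, begins at position -189 from one start site of Sgk1 and lies 965 bases before the next one downstream. The sequence is shown because Sgk1 is the member with this element, with the palindrome in capitals, from the plus strand at chr10:21993683-21993742.
Sgk1: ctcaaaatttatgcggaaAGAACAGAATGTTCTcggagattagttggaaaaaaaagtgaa
These matches describe letters in the windows and say nothing of binding in the colon.

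None of the 10 genes passed the threshold (adjusted p not above 0.05 with a fold change above 1.5) in any of 6 comparisons, with all 17 arrays or without the 4. Of all 38703 tested probes, 0% passed for PCN in WT, for either genotype comparison and for the interaction, and 0.00517% for PCN in Pxr-/- and equally for PCN over both genotypes. Without the 4 arrays these shares were 0.0491% in WT and 0.0517% in Pxr-/- for PCN, 0% for genotype in CONT, 0.0207% for genotype under PCN, 0.00258% for the interaction and 0.194% for PCN over both genotypes. At an unadjusted p under 0.05, 2 members were counted for PCN in WT (4.66% of all probes), 2 for PCN in Pxr-/- (7.35%), 3 for genotype in CONT (12.7%), 0 for genotype under PCN (3.28%), 1 for the interaction (5.38%) and 1 for PCN over both genotypes (5.91%).

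The median log2 fold change of the 10 genes was -0.08 for PCN in WT and 0.18 for PCN in Pxr-/-, against -0.00 and 0.01 over all probes, and 0.11 and 0.28 without the 4 arrays. Every chosen probe was well above background on all 17 arrays. In bulk tissue, fewer cells of a type and less RNA per cell cannot be told apart.

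**Figure D1:**
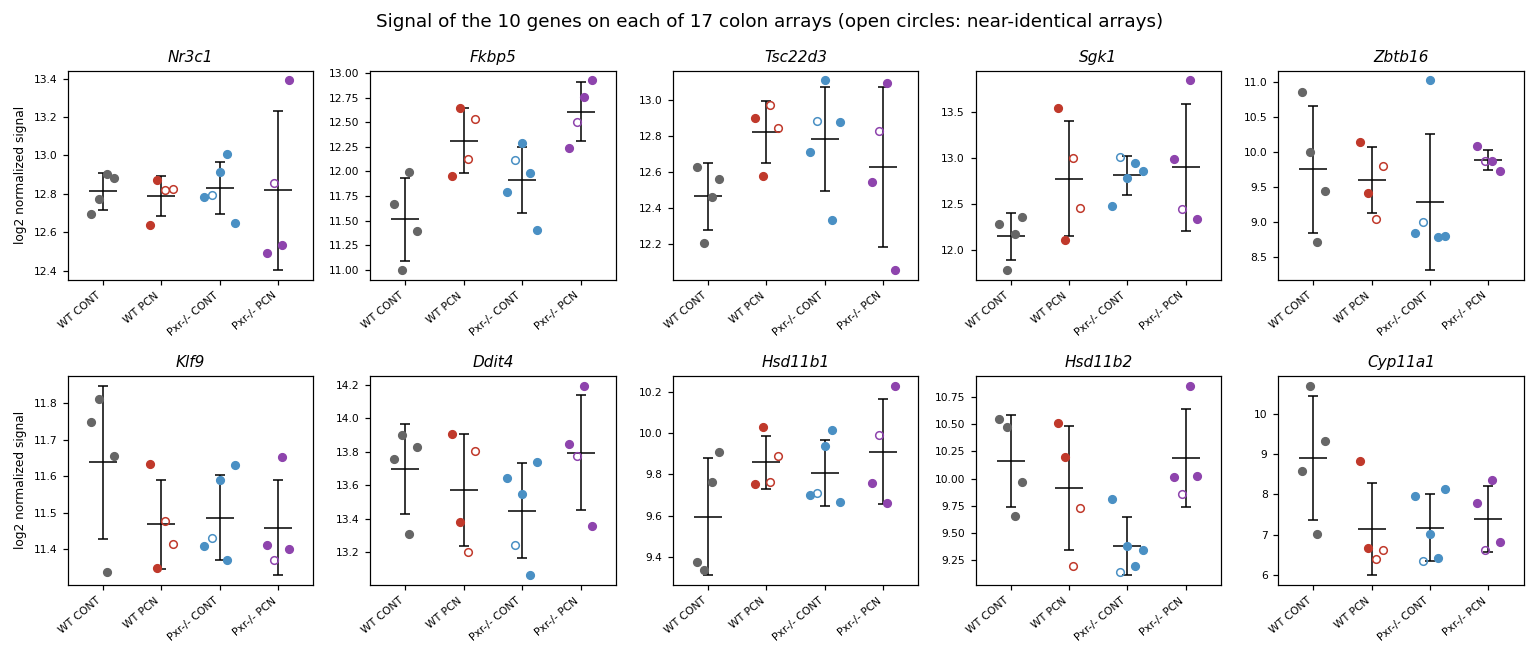
Log2 normalized signal (vertical axes, own range for each gene) of the 10 genes on each array, by group (horizontal axes), with the group mean and SD as black bars and the 4 near-identical arrays as open circles. All 5 Pxr-/- CONT values of Sgk1 lie above the 4 WT CONT values, all 4 Pxr-/- PCN values of Hsd11b2 lie above the 5 Pxr-/- CONT values, and Nr3c1 shows no separation of groups.

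Nr3c1 encodes the glucocorticoid receptor, and its group means lay between 12.79 and 12.83. On the log2 scale its signal was 12.70, 12.77, 12.90 and 12.88 in WT CONT replicates 2 to 5, and 12.64, 12.87, 12.82 and 12.83 in WT PCN replicates 1 to 4. In Pxr-/- CONT replicates 1 to 5 it was 12.79, 12.80, 12.92, 13.01 and 12.65, and in Pxr-/- PCN replicates 1 to 4 it was 12.49, 12.86, 12.53 and 13.39. The groups overlapped throughout, and Pxr-/- PCN held both the lowest and the highest value. The fitted difference was -0.03 for PCN in WT (95% interval -0.36 to 0.31) and -0.01 for PCN in Pxr-/- (-0.33 to 0.31), and neither comparison passed the threshold (adjusted p = 0.994 in both). A second probe, also above background on all arrays, gave -0.01 ± 0.25 and 0.02 ± 0.23, and over 15 arrays its signal gave r = 0.58 with that of the chosen probe.

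Genes whose products assist the receptor gave no call either. Of 17 such genes, which include the mineralocorticoid receptor gene Nr3c2, heat shock proteins and coregulators, none was called in any comparison. For PCN over both genotypes, their median log2 fold change was -0.05, against 0.00 over all genes tested. The smallest p-value belonged to Fkbp4, a co-chaperone of the receptor, with a log2 fold change of -0.13 ± 0.05 (SE, adjusted p = 0.679). For genotype in CONT, Nr3c2 had a value of -0.34 ± 0.13 (adjusted p = 0.328).

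Fkbp5, an immunophilin that lowers the affinity of the receptor for its ligand and is itself a target of the receptor, had the smallest p-value of the 10 genes for PCN over both genotypes. Its log2 signal was 11.67, 11.00, 11.99 and 11.40 in WT CONT replicates 2 to 5, and 11.96, 12.65, 12.12 and 12.53 in WT PCN replicates 1 to 4. In Pxr-/- CONT replicates 1 to 5 it was 11.79, 12.11, 12.28, 11.98 and 11.40, and in Pxr-/- PCN replicates 1 to 4 it was 12.24, 12.51, 12.76 and 12.93. In each genotype only the lowest PCN value lay below the highest CONT value. The fitted log2 fold change was 0.77 ± 0.24 (SE) in WT and 0.68 ± 0.22 in Pxr-/-, with an interaction of 0.09 (95% interval -0.60 to 0.78). Over both genotypes it was 0.72 ± 0.16, or 1.65-fold (95% interval of the log2 value 0.38 to 1.07), which ranked 77 among 38703 probes and did not pass the threshold (adjusted p = 0.249).

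The value of Fkbp5 did not rest on the near-identical arrays. Without the 4 arrays it was 0.79 ± 0.31 in WT, 0.81 ± 0.28 in Pxr-/- and 0.80 ± 0.21 over both (adjusted p = 0.260). Over both genotypes it was 0.80 within wash bath 1 and 0.54 within wash bath 2. In WT alone the lower of both within-bath values was 0.26, from wash bath 2, where WT PCN is replicate 1 alone. Over both genotypes it stayed above 0 under all 17 alternatives and on leaving out each of the 17 arrays, between 0.49 and 0.80, with adjusted p between 0.0577 and 0.944. The second probe, shown above, had values of 8.79 to 9.50 in WT CONT, 9.42 to 9.88 in WT PCN, 9.24 to 9.89 in Pxr-/- CONT and 9.54 to 10.25 in Pxr-/- PCN. Its log2 fold change over both genotypes was 0.49 ± 0.13 (adjusted p = 0.383), and its signal varied with that of the chosen probe over 15 arrays (Pearson's r = 0.85, leaving out WT PCN replicates 3 and 4, as in all correlations over 15 arrays). Another probe, annotated to an Ensembl transcript and above background on 11 arrays, gave 0.27 ± 0.11 (adjusted p = 0.783).

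**Figure D2:**
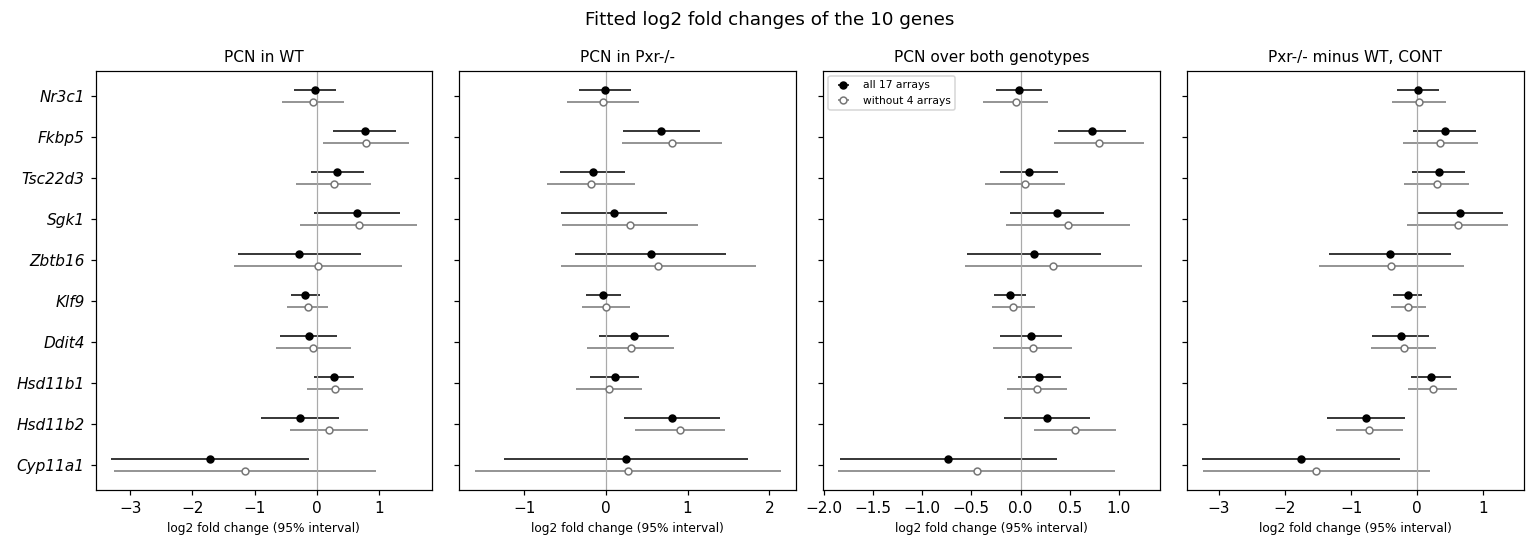
Fitted log2 fold change (horizontal axes) of each of the 10 genes (vertical axis) in 4 comparisons, with 95% intervals, from all 17 arrays (filled) and without the 4 near-identical arrays (open). In both fits the intervals of Fkbp5 lie above 0 in the 3 PCN panels, and those of Hsd11b2 above 0 for PCN in Pxr-/- and below 0 for genotype. With all 17 arrays, the intervals of Cyp11a1 also lie below 0 for PCN in WT and for genotype, and that of Sgk1 above 0 for genotype. No adjusted p passed the threshold.

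Tsc22d3 encodes GILZ, a leucine zipper protein that carries anti-inflammatory effects of glucocorticoids. Signal on the log2 scale was 12.63, 12.20, 12.46 and 12.56 in WT CONT, 12.90, 12.57, 12.97 and 12.84 in WT PCN, 12.71, 12.88, 13.11, 12.33 and 12.88 in Pxr-/- CONT and 12.54, 12.82, 13.09 and 12.05 in Pxr-/- PCN. In WT, 3 of 4 PCN values were above every control value, whereas in Pxr-/- the PCN and control values overlapped widely. Among these high WT values, those of replicates 3 and 4 came from near-identical arrays. Of the WT PCN arrays kept without them, replicate 1 (12.90) lay above the controls and replicate 2 (12.57) within their range. The fitted value was 0.33 ± 0.20 in WT and -0.16 ± 0.19 in Pxr-/- (adjusted p = 0.956 and 0.909), and the interaction of 0.50 ± 0.27 did not pass the threshold either (adjusted p = 0.848). A second probe above background on all arrays gave 0.38 ± 0.19 and -0.14 ± 0.17.

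Sgk1, a kinase that raises sodium uptake by epithelial sodium channels, had control groups that did not overlap between the genotypes. The log2 signal was 12.28, 11.79, 12.18 and 12.36 in WT CONT replicates 2 to 5 and 12.47, 13.01, 12.78, 12.94 and 12.85 in Pxr-/- CONT replicates 1 to 5. All values of Pxr-/- CONT lay above all values of WT CONT. Of the 10 genes, 1 had such separate groups in this comparison, against 5.39% of all probes, and without the near-identical arrays the count was again 1, against 6.73%. Between WT CONT and WT PCN it was 0 (2.64% of all probes, 11.2% without the 4 arrays), and between the genotypes under PCN it was also 0 (1.48% and 19.1%). The difference of 0.65 ± 0.30, or 1.57-fold, did not pass the threshold (adjusted p = 0.393), nor did that without the 4 arrays (0.61 ± 0.35, adjusted p = 0.590). Within wash bath 1 it was 0.83 and within wash bath 2 it was 0.51. Under PCN the same values were 13.54, 12.11, 12.995 and 12.46 in WT and 12.98, 12.44, 13.84 and 12.33 in Pxr-/-, with a wide overlap. The PCN value was 0.65 ± 0.32 in WT and 0.10 ± 0.30 in Pxr-/-, and the interaction was 0.55 (95% interval -0.39 to 1.49). These values rested on single arrays. Without WT PCN replicate 1 the PCN value in WT was 0.32 and the interaction 0.24. Without Pxr-/- PCN replicate 3 the PCN value in Pxr-/- was -0.24 and the interaction 0.94, and without Pxr-/- PCN replicate 4 they were 0.34 and 0.34. Over 15 arrays, the signals of Sgk1 and Tsc22d3 gave r = 0.63.

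Sgk1 acts on sodium transport, and genes of that pathway gave no call. Of 13 genes of colonic sodium transport, which include Sgk1 and Tsc22d3, none was called in any comparison. Scnn1a, the alpha subunit of the epithelial sodium channel, had a log2 fold change of -0.30 ± 0.13 for PCN over both genotypes (adjusted p = 0.816). That of the gamma subunit gene Scnn1g was 1.35 ± 0.73 (adjusted p = 0.883).

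Zbtb16 and Klf9 encode zinc finger transcription factors induced by glucocorticoids, and Ddit4 encodes an inhibitor of the mTORC1 growth pathway. Zbtb16 was widely scattered within groups, with 8.71 to 10.85 in WT CONT, 9.05 to 10.14 in WT PCN, 8.78 to 11.02 in Pxr-/- CONT and 9.73 to 10.08 in Pxr-/- PCN. In Pxr-/- CONT, replicate 3 had 11.02 and the other 4 arrays 8.78 to 8.99, all below the 4 PCN values, and the PCN value in Pxr-/- was 0.55 ± 0.43 (adjusted p = 0.848). Its junction-crossing probe varied in parallel over 15 arrays (r = 0.96) and was above background on 14 of 17 arrays. The signal of Klf9 lay from 11.34 to 11.81 over all arrays, with a PCN value of -0.18 ± 0.11 in WT and -0.03 ± 0.10 in Pxr-/- (adjusted p = 0.956 and 0.973). Ddit4 lay between 13.06 and 14.20, with -0.13 ± 0.21 in WT and 0.35 ± 0.20 in Pxr-/- (adjusted p = 0.965 and 0.761).

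Among the steroid enzymes, Hsd11b1 encodes the reductase that regenerates active corticosterone. Over the arrays the log2 signal was 9.33 to 9.91 in WT CONT, 9.75 to 10.03 in WT PCN, 9.67 to 10.02 in Pxr-/- CONT and 9.66 to 10.23 in Pxr-/- PCN. The PCN value was 0.28 ± 0.15 in WT and 0.11 ± 0.14 in Pxr-/- (adjusted p = 0.956 and 0.922). H6pd, which supplies the cofactor of this enzyme, had 0.13 ± 0.07 over both genotypes (adjusted p = 0.877).

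Hsd11b2 encodes the dehydrogenase that inactivates corticosterone and so keeps the mineralocorticoid receptor of the colon selective for aldosterone. Its log2 signal was 9.82, 9.14, 9.38, 9.20 and 9.35 in Pxr-/- CONT replicates 1 to 5 and 10.01, 9.86, 10.86 and 10.03 in Pxr-/- PCN replicates 1 to 4. All PCN values lay above all control values in Pxr-/-, and this held for 1 of the 10 genes, against 2.80% of all probes (1 gene against 6.62% without the near-identical arrays). In WT CONT replicates 2 to 5 the signal was 10.55, 10.48, 9.66 and 9.96, and in WT PCN replicates 1 to 4 it was 10.51, 10.20, 9.20 and 9.73. WT values overlapped with and without PCN, and the 2 low WT PCN values belonged to the near-identical arrays.

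The PCN value of Hsd11b2 was 0.81 ± 0.28 in Pxr-/-, or 1.75-fold (adjusted p = 0.544), and 0.91 ± 0.25 without the 4 arrays (adjusted p = 0.459). It was 1.07 within wash bath 1 and 0.58 within wash bath 2. Cell type markers moved in the same comparison. In it 7.35% of all probes had an unadjusted p under 0.05, and the median over all genes tested was 0.00. At that level, 6 of 8 enteric neuron genes and 5 of 7 smooth muscle genes were lower, with medians of -0.38 and -0.45. Of 6 tested mast cell genes, 4 were higher, with a median of 0.97. None of these marker genes was called. The mean log2 signal of the enteric neuron genes was 8.92 to 9.39 in Pxr-/- CONT and 8.50 to 8.94 in Pxr-/- PCN, that of the smooth muscle genes 15.05 to 15.65 and 14.79 to 15.25, and that of the mast cell genes 6.37 to 6.86 and 6.71 to 7.76. Their part in the value of Hsd11b2 was not tested. For PCN in WT, 5 of 7 adipocyte genes were lower at that level (4.66% of all probes), with a median of -1.30. Of the 7 genes, 1 had a value above 0, and without the 4 arrays the median was -0.78. The part of the adipocyte list in the WT values of the members was not tested. For Hsd11b2 the PCN value in WT was -0.27 ± 0.30 with all arrays and 0.19 ± 0.28 without the 4, a change of sign. Within wash bath 1 it was -0.80 and within wash bath 2, where WT PCN is replicate 1 alone, it was 0.70. The interaction was -1.07 ± 0.40 with all arrays (adjusted p = 0.848) and -0.71 ± 0.38 without the 4. For genotype in CONT, Hsd11b2 had -0.78 ± 0.28 with all arrays (adjusted p = 0.300) and -0.73 ± 0.23 without the 4 (adjusted p = 0.327).

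Cyp11a1, the side-chain cleavage enzyme that makes pregnenolone from cholesterol, had the widest range of signal of the 10 genes, from 6.35 to 10.71. The chosen probe is annotated to a cDNA clone and not to the RefSeq transcript, and lies at 57854517 to 57854576 on the plus strand of chromosome 9 (mm9). Its log2 signal was 8.59, 10.71, 7.01 and 9.34 in WT CONT replicates 2 to 5, and 8.84, 6.67, 6.40 and 6.62 in WT PCN replicates 1 to 4. In Pxr-/- CONT replicates 1 to 5 it was 7.96, 6.35, 7.02, 6.41 and 8.14, and in Pxr-/- PCN replicates 1 to 4 it was 7.80, 6.61, 8.36 and 6.82. WT CONT held the highest value but also one of 7.01, and it overlapped with the other 3 groups. The fitted value was -1.76 ± 0.70 for genotype in CONT (adjusted p = 0.339) and -1.71 ± 0.75 for PCN in WT (adjusted p = 0.956). Without the 4 arrays these were -1.53 ± 0.78 and -1.15 ± 0.95. On leaving out WT CONT replicate 3, which had the highest signal, the value was -1.09 for genotype in CONT and -0.92 for PCN in WT. The PCN value in WT was -3.09 within wash bath 1 and 0.67 within wash bath 2. For WT PCN, wash bath 2 holds replicate 1 alone, and wash bath 1 holds replicates 2, 3 and 4, which include near-identical arrays. The junction-crossing probe of the RefSeq transcript was well above background on WT CONT replicate 3 only, and did not enter the fit. It was not well above background on the other 16 arrays. Over 15 arrays its signal, near background on nearly all of them, gave r = 0.83 with that of the chosen probe. Whether the chosen probe reads Cyp11a1 mRNA was not tested, so that the values are those of a probe annotated with this gene name.

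Genes of steroid synthesis and metabolism around these enzymes gave few calls. Of 17 genes of steroid synthesis, 14 were tested and none was called. Of 6 adrenal cortex genes, 3 were too dim to be tested, and the mean log2 signal of the others lay between 6.13 and 6.34 on every array. Of 19 genes that activate or inactivate steroids, 18 were on the array, 17 were tested and none was called with all arrays. Without the 4 arrays Cyp7b1, a hydroxylase of oxysterols and neurosteroids, rose with PCN over both genotypes by 0.80 ± 0.13 (adjusted p = 0.0464), and when each of the 13 arrays was left out in turn 0 or 1 genes of the list were called. With all arrays its value was 0.63 ± 0.14 (adjusted p = 0.223).

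Of 30 genes that glucocorticoids induce, none was called with all arrays and 1, the decoy interleukin-1 receptor gene Il1r2, rose with PCN over both genotypes without the 4 arrays (1.04 ± 0.12, adjusted p = 0.00483). The median of the 30 genes was 0.02 with all arrays and 0.10 without the 4, against 0.00 and -0.01 over all genes tested. The metallothionein genes Mt2 and Mt1, which also respond to metals, had 1.13 ± 0.20 and 0.67 ± 0.14 with all arrays (adjusted p = 0.102 and 0.183).

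Of 16 inflammatory genes that glucocorticoids repress, 14 were tested, and with all arrays none was called for PCN over both genotypes. The list was chosen with earlier results of these data known. Without the 4 arrays 5 of the 14 rose, while 0.194% of all probes were called. They were Il1b by 1.34 ± 0.11 (adjusted p = 0.00100), Ccl2 by 2.00 ± 0.22 (0.00462), Cxcl1 by 1.41 ± 0.17 (0.00700), Il6 by 1.54 ± 0.19 (0.00988) and Mmp9 by 0.81 ± 0.13 (0.0335). These encode cytokines, chemokines and a matrix protease. The median of the 14 genes was 0.60, against -0.01 over all genes tested, and 0.40 with all arrays, and 3 of the 14 had a value below 0. When each of the 13 arrays was left out in turn, 4 to 7 of the 14 were called. With all arrays the value of Ccl2 was 1.65 ± 0.30 (adjusted p = 0.108) and that of Il1b 0.94 ± 0.22 (adjusted p = 0.264). For PCN in each genotype alone, without the 4 arrays, 1 gene of the list was called in WT and 0 in Pxr-/-, with medians of 0.67 and 0.57. For genotype under PCN, also without them, the median was -0.60 and 0 were called. On the arrays kept, Il1b was 7.74 to 7.93 in WT CONT, 9.23 and 10.02 in WT PCN, 7.47 to 7.76 in Pxr-/- CONT and 8.06 to 8.64 in Pxr-/- PCN, with no overlap between PCN and CONT in either genotype. WT PCN replicate 3, one of the arrays left out, had 7.88, which is within the WT CONT range. Macrophage and monocyte genes, a list of 6, had a mean log2 signal of 12.11 to 12.76 in WT CONT, 12.22 to 12.89 in WT PCN, 12.03 to 12.33 in Pxr-/- CONT and 12.14 to 12.62 in Pxr-/- PCN. Without the 4 arrays 5 of these 6 genes had a value above 0 for PCN over both genotypes, 2 of them at an unadjusted p under 0.05, with a median of 0.33. Of 6 tested mast cell genes, 4 were higher at that level, with a median of 0.64. Of all genes tested, 47.9% had a value above 0 in this fit. The share of all probes at an unadjusted p under 0.05 was not computed for it, so the counts at that level have no baseline. None of either list was called, and their part in the values of the inflammatory genes was not tested.

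**Figure D3:**
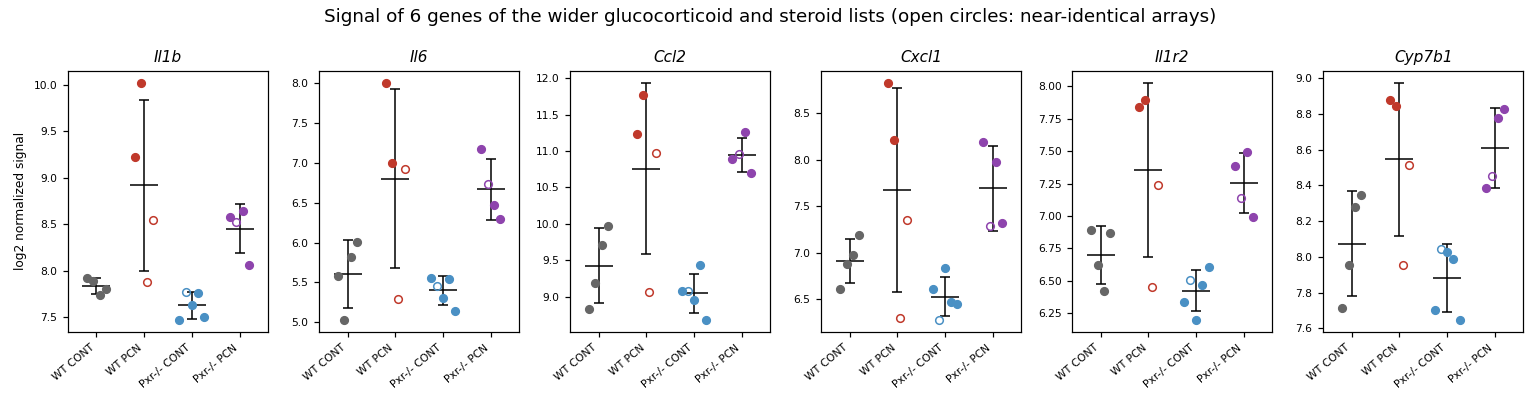
Log2 normalized signal of 6 genes of the wider lists (vertical axes, own range for each gene) on each array by group (horizontal axes), with mean and SD as black bars and the near-identical arrays as open circles. In Il1b, Il6, Ccl2 and Cxcl1 the filled PCN circles lie above all CONT circles of their genotype, and the lowest open circle of WT PCN, which is replicate 3, lies below the highest WT CONT value.

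Over the arrays of all groups together, the variation of several members went along with the level of genes that mark the distal colon. Variation within single groups was not examined apart from that between them. The list of 5 homeobox genes (Hoxb13, Hoxd13, Hoxd12, Hoxd11 and Hoxa13) had a mean log2 signal of 8.03 to 9.88 in WT CONT, 8.05 to 10.31 in WT PCN, 7.70 to 9.47 in Pxr-/- CONT and 6.35 to 10.44 in Pxr-/- PCN. Of these genes 3 were above background on all arrays, Hoxd12 on 11 and Hoxd11 on 4. Over 15 arrays, the mean of the list gave r = 0.85 with Ddit4, 0.75 with Cyp11a1, 0.69 with Klf9, 0.53 with Hsd11b2, -0.68 with Hsd11b1 and -0.85 with Nr3c1. For Fkbp5 r was -0.46 and for Sgk1 0.38. Pxr-/- PCN replicate 4 had the lowest mean of the list (6.35) and the highest Nr3c1 signal, and no r was computed without that array. The list of 6 B cell genes, whose mean lay between 6.50 and 9.83, gave r = 0.79 with Ddit4 and 0.71 with Cyp11a1. Among these members, Klf9, Cyp11a1, Hsd11b1, Hsd11b2, Fkbp5 and Sgk1 each had a larger value, regardless of sign, with another cell type list. It was -0.78 for Klf9 with the skeletal muscle list and 0.74 for Hsd11b1 with the fibroblast list. For Sgk1 it was -0.48 with the adipocyte list. Ddit4 had r = -0.82 with the enteric neuron list, -0.79 with each of the smooth and skeletal muscle lists, -0.75 with the colonocyte list and 0.73 with the mast cell list. For Cyp11a1 r was -0.78 with the skeletal muscle list and -0.74 with the colonocyte list, and for Hsd11b2 it was 0.75 with the mast cell list and -0.68 with the smooth muscle list. Fkbp5 had no value beyond the 0.53 with the fibroblast list and the -0.53 with the B cell list. These points share arrays and normalization, and the part of any list in the group values was not tested.

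**Figure D4:**
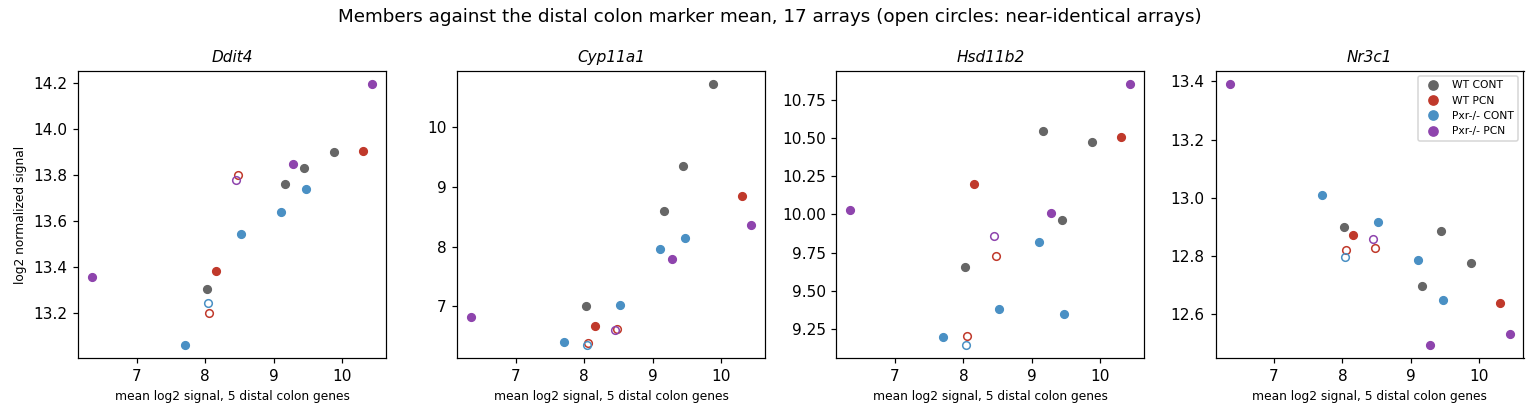
Log2 normalized signal of 4 members (vertical axes) against the mean log2 signal of 5 distal colon genes (horizontal axes) on each of 17 arrays, coloured by group, with near-identical arrays as open circles. Ddit4 and Cyp11a1 are high, and Nr3c1 is low, on the arrays with a high mean, and Pxr-/- PCN replicate 4 has the lowest mean (6.35) with the highest Nr3c1 signal (13.39).

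The members did not vary as 1 group. Among the 45 pairs of members over 15 arrays, r ranged from -0.69 for Fkbp5 and Cyp11a1 to 0.85 for Klf9 and Cyp11a1. Fkbp5 varied most like Hsd11b1 (r = 0.66), whereas Hsd11b2 varied most like Ddit4 (r = 0.72). Over the whole array, the named genes with the signal most like that of Fkbp5 were Rasgef1c, Gfap and Car9 (r = 0.87 each), those most like Nr3c1 were Ppara, Hoxb4 and Grin3a (r = 0.94 each), and for Hsd11b2 they included Rtcb and Rin1 (r = 0.91 each).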

How the data were processed

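RNA of 17 colons was hybridized by the authors to 1-colour Agilent arrays, and the deposited scanner files (Feature Extraction 10.10.1.1) give the median intensity of each spot, not normalized between arrays. The authors also deposited log2 values of 36695 probes, corrected for wash bath and normalized, which chose the probe of each gene and served as an alternative. The 59305 non-control spots, minus those marked as outliers, were put on the log2 scale and quantile-normalized between arrays (CrossNorm, which the methods name, was not repeated), and averaging over spots gave 56605 probes. Probes well above background on at least 4 arrays were tested (38703). A linear model with 4 groups and wash bath was fitted with limma 3.58.1 (R 4.3.3), p-values were adjusted by Benjamini-Hochberg over all tested probes, and calls needed an adjusted p not above 0.05 together with a fold change above 1.5. Adjusted p values are all from this model, errors after ± are SE, and signals and differences are on the log2 scale. Signals of different probes were not compared as levels.

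Group and replicate came from the submitters' labels, and p-values measure the spread between arrays. The 6 comparisons were PCN in each genotype, genotype in CONT and under PCN, the difference of the PCN effects (WT minus Pxr-/-) and their mean. Named were the 10 members, their other probes where these differed, called genes of the wider lists (or up to 3 with the smallest p), Nr1i2 and, for each member, the 3 genes with the highest r, of which a part is printed. Members and lists were chosen with earlier results of these data known. On simulated data with 200 genes changed by 1 log2 unit in WT PCN, the model called 81.5% for PCN in WT with 17 arrays and 66.5% with 13. The other comparisons were not simulated. The simulated arrays varied independently, without near-identical pairs, so that the share for 17 arrays may not hold for these data. Same-numbered arrays were checked for pairing. Of 22 such pairs between groups, 11 had correlated deviations over 0.1 (median 0.100), against 30 of 86 pairs with other numbers (median -0.048). These ranges overlap, so the check cannot decide whether the numbers pair the arrays. The replicate number was used as a block in an alternative only. Lists were also examined, as a choice made after seeing the data, with each of the 13 arrays left out.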

Additional observations from a re-analysis of the deposited data

Results flagged for a closer look

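Of 40 groups of 4 or 5 arrays, 4 held an array whose signal lay far from the others of its group by Dixon's test at 95%, and chance gives about 1 in 20 such groups. Zbtb16, a transcription factor gene, was 11.02 in Pxr-/- CONT replicate 3 and 8.78 to 8.99 on the other 4 arrays. Klf9 was 11.652 in Pxr-/- PCN replicate 3, against 11.37 to 11.41. Hsd11b2 was 10.856 on the same array, against 9.86 to 10.03, and the distal colon genes had their highest mean (10.44) there. Cyp11a1 was 8.8425 in WT PCN replicate 1, against 6.40 to 6.67, and the mean of the distal colon genes was 10.31 on that array, against 8.05 to 8.48 on the other WT PCN arrays. The part of that marker list in these values was not tested.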

How the results depend on the processing

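The number of members called was 0 of 10 in each of the 6 comparisons, and it was again 0 under every alternative but one, including another background correction or scaling, the authors' values, other filters, slide as a block, each wash bath alone and the fit without the 4 near-identical arrays. With array weights 2 members were called for genotype in CONT, namely Hsd11b2 (-0.88, adjusted p = 0.0369) and Cyp11a1 (-1.86, adjusted p = 0.0457), and the cause was not tested. Leaving out each array in turn gave 0 to 0 members. With the replicate number as a block, 0 members were called in all 6 comparisons. Of 60 member values, 38 changed sign under some alternative and 19 on leaving out 1 array. Among all probes, calls for PCN over both genotypes were 2 with all arrays, 75 without the 4 near-identical arrays, 102 without WT PCN replicates 3 and 4 only, 63 without WT PCN replicate 3 and 40 with array weights. For genotype in CONT they were 0, and 521 with array weights. The inflammatory genes called without the 4 arrays numbered 5 of 14 for PCN over both genotypes, and 5 without WT PCN replicates 3 and 4 only. Only 4 or 5 arrays per group, and 2 in WT PCN without the near-identical arrays, limit the size of difference that can pass.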
